A study of Mus musculus with 12 samples.

Results

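The integrin subunit genes Itga1, Itga4, Itgad, Itgae, Itgal, Itgav, Itgb1, Itgb2, Itgb3 and Itgb7 were followed through single-cell RNA sequencing of mouse splenic and thymic γδ T cells and of thymic precursors. They were picked by name and make up 10 of the 33696 genes listed in the files. Each was read as counts scaled to a common library total (CPM) of the unique molecular identifiers (UMIs, which mark single captured RNA molecules) summed over the cells of a library, and as the share of cells with at least 1 UMI. The 12 libraries came from 3 sorted populations of adult mice on a C57BL6/J background: splenic γδ T cells, thymic γδ T cells, and CD4- CD8- double negative thymocytes of stages DN1 to DN3 (DN cells). Each population was sorted from wild-type (WT) mice and from GFI1 KO mice, which carry the deletion in the germline and so in every cell of the body, and each group had 2 libraries. The WT and the GFI1 KO cells of a number were marked with hashtag antibodies and shared a droplet run, here called pool 1 or pool 2, and the thymic γδ T cells and DN cells came from the same mice. How many mice went into a library was not given in the sources used here, so the p-values measure only the spread between these libraries. Before sorting, cells bearing, among other proteins, Gr1, NK1.1 and the integrin subunits CD11b (Itgam), CD11c (Itgax) and CD49b (Itga2) were removed magnetically from spleen and thymus, and CD8+ cells in part from the thymus.

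An integrin is a pair of an α and a β subunit that spans the membrane and binds matrix proteins or ligands on other cells, with its tail linked to the actin cytoskeleton through talin and kindlin. Lymphocytes use α4β7 to bind MAdCAM on gut vessels, α4β1 to bind Vcam1 and fibronectin, αEβ7 (CD103) to bind E-cadherin on epithelium, αLβ2 to bind Icam1, and α1β1 to bind collagen. The αV subunit pairs with several β subunits, β3 among them, and takes part in releasing active TGF-β, while αD pairs with β2. A β subunit that serves several α partners cannot be assigned to a pair from its RNA, and RNA does not give the amount of receptor on the surface.

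The 12 libraries held between 42091895 and 71663962 UMIs in 6795 to 11679 cells, with medians of 4947 to 6853 UMIs per cell. No cell barcode was shared between the WT and KO library of a pool, and 148 to 244 barcodes of a library also occurred in other pools. The RNA of Gfi1, the targeted gene, was not lower in KO, and both KO libraries stood above both WT libraries in each population, by little in the spleen. It was at 11.8 and 18.0 CPM in WT and 18.1 and 18.1 CPM in KO spleen, at 16.5 and 17.6 against 28.9 and 19.2 CPM in thymic γδ T cells, and at 44.7 and 40.6 against 70.6 and 56.6 CPM in DN cells. The deleted stretch was not given in the sources used here, and 3′ tags outside it check nothing, so KO and WT below stand for the libraries labelled so. Xist RNA was at most 0.37 CPM in the splenic and at least 739 CPM in the thymic libraries, so that tissue, droplet run and sex of the mice cannot be told apart in any comparison of spleen with thymus. All 7 listed markers of IL-17-producing γδ T cells (γδT17 cells) were higher in KO in every population, and their summed CPM was 733 and 721 in WT and 7658 and 8180 in KO spleen, 865 and 740 in WT and 5633 and 6575 in KO thymic γδ T cells, and 110 and 108 in WT and 1336 and 741 in KO DN cells. Summed markers of αβ T cells (251 and 199 CPM in WT, 60 and 65.2 in KO) were lower in KO spleen, NK markers were lower in KO thymic γδ T cells (1158 and 939 in WT, 401 and 217 in KO) and in KO spleen (125 and 132 in WT, 36.2 and 28.1 in KO), and red cell markers were higher in KO spleen (32.6 and 28.0 in WT, 137 and 59.3 in KO). In DN cells the sums were higher in KO, with αβ T cell markers at 27.3 and 31.3 CPM in WT and 164 and 72.0 CPM in KO, NK markers at 307 and 361 against 518 and 616 CPM, and dendritic cell markers at 10.1 and 9.50 against 41.9 and 85.7 CPM. Of these lists 1 of 4 αβ T, 2 of 4 NK and 2 of 4 dendritic markers passed as higher in KO DN cells and none as lower. The NK list is Ncr1, Klrb1c, Eomes and Gzma. The paper describes Gzma in clusters of thymic γδ T cells, so the NK sum is no count of NK cells. The markers shared by γδ T cells summed to 3496 and 3636 CPM in WT and 5546 and 5856 CPM in KO spleen and to 3905 and 3893 against 6327 and 6954 CPM in thymic γδ T cells, with 4 of 5 passing as higher in each and 1 as lower in thymic γδ T cells. In DN cells they summed to 3508 and 3653 CPM in WT and 3415 and 3372 CPM in KO, with 2 of 5 passing as lower. The DN thymocyte markers summed to 812 to 1083 CPM in DN libraries, to 51.5 and 47.3 CPM in WT and 171 and 160 CPM in KO spleen, and to 62.6 and 78.7 against 125 and 154 CPM in thymic γδ T cells. Of these 5 markers 1 passed as higher in KO in each γδ T cell population, while 2 in spleen and 4 in thymic γδ T cells passed as lower. The stroma markers summed to 210 and 219 CPM in WT and 153 and 152 CPM in KO spleen. They summed to 265 and 249 against 171 and 149 CPM in thymic γδ T cells and to 207 to 239 CPM in DN libraries. In each γδ T cell population 2 of 3 tested were lower in KO. The stroma list is Col1a1, Col3a1, Epcam and Pecam1. The paper lists Pecam1 among genes that differ in splenic Trgv6+ γδ T cells, so this sum is no count of stromal cells. Myeloid markers stayed at or below 8.84 CPM and platelet and megakaryocyte markers at or below 0.69 CPM in every library, with 3 or 4 of the 5 platelet markers at 0 in the thymic libraries. Leaving out the 17 to 436 cells a library with a UMI of any of 7 marker genes, among them Lyz2, Csf1r, Pf4, Ppbp and Ncr1 but none of αβ T or dendritic cells, changed no member's call in the comparisons of whole populations. In a population measured as a sum of cells, fewer cells of a type and less RNA per cell cannot be told apart, and the part that γδT17 or other marker-bearing cells had in the differences below was not tested except where groups of cells are compared.

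Stretches just upstream of 3 members are shown because Itga4 and Itgb7, whose products form α4β7, moved in opposite directions in KO γδ T cells, and because Itgb1 had the largest rise of the members in the spleen. The stretches are the 250 bases before the RefSeq start of each gene in the mouse build GRCm38.p6, which is older than the build GRCm39 that the submitters' processing notes name, and they are written 5′ to 3′ on the strand of the gene. Capitals mark AATC, the core of the sequence that GFI1 binds, and TGTGGT, the core of the RUNX site, on either strand.
Itga4, chr2:79255176-79255425, plus strand: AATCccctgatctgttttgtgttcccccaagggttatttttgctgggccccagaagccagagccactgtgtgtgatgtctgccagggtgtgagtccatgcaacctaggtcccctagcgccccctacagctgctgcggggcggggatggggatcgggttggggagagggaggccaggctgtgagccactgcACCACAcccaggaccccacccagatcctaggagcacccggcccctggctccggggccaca
Itgb7, chr15:102231936-102232185, minus strand: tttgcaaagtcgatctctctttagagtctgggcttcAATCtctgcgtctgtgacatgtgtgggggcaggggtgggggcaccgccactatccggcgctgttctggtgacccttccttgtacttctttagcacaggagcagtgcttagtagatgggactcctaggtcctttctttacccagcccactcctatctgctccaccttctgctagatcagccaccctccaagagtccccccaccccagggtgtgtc
Itgb1, chr8:128685404-128685653, plus strand: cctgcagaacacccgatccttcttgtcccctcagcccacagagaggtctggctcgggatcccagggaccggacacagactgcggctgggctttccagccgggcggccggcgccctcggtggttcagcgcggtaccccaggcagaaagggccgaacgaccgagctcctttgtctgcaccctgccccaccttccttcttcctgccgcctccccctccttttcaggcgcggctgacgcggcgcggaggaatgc
AATC lay 250 bases before the start of Itga4 and 214 bases before that of Itgb7, both on the strand of the gene, and TGTGGT lay 60 bases before the start of Itga4 on the opposite strand. The Itgb1 stretch held neither. Of the 10 members, 5 were in the promoter table (Itga1, Itga4, Itgav, Itgb1 and Itgb7), and among these 3 held AATC, 1 held TGTGGT and 0 held the longer GFI1 motif AAATCAC. Of 32851 promoters of the same length, 69.0% held AATC, 14.0% TGTGGT and 2.75% AAATCAC, so that such short matches are common, and a match is a description of letters rather than a site of binding.

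Among WT cells most members differed between thymic γδ T cells and DN cells, while the count between splenic and thymic γδ T cells was nearer to that of all genes. Of the 10 members, 7 passed the test between WT splenic and WT thymic γδ T cells, 6 higher and 1 lower in the spleen, where 48.8% of the 14921 genes tested did so, 23.0% higher and 25.8% lower, and 4 or 5 passed with any 1 WT library of these left out. Between WT thymic γδ T cells and WT DN cells 9 passed, 7 higher and 2 lower in the γδ T cells, where 47.2% of genes did so, 24.4% higher and 22.9% lower. The median over the members was 0.80 in the first comparison and 1.74 in the second, against 0.01 and -0.00 over all genes. All tests were edgeR quasi-likelihood tests on UMI sums per library with p-values adjusted over all genes tested, 14921 in whole populations and fewer in the groups of cells described further on, and differences are given as log2 ± SE with 2 libraries a group. With a library left out, its group held 1 library and the spread came from the other groups. Adjusted p-values of such fits leave out the spread between the 2 libraries of that group.

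Among the β subunits, Itgb2, Itgb3 and Itgb7 were below 10 CPM in WT DN cells, where Itgb1 stood at 151 and 127 CPM. Itgb7 (ENSMUSG00000001281), the partner of α4 and αE, stood at 8.88 and 8.39 CPM in WT DN cells, at 77.5 and 88.5 CPM in WT thymic γδ T cells and at 245 and 249 CPM in WT splenic γδ T cells. The libraries of the 3 populations did not overlap, and both steps passed the test, with 3.28 ± 0.30 more in thymic γδ T cells than in DN cells (adjusted p = 2.6e-05) and 1.65 ± 0.28 more in spleen than thymus (adjusted p = 0.00097). Itgb2 (ENSMUSG00000000290), the shared β chain of αL and αD, had the same order, with 9.35 and 9.23 CPM in DN cells, 99.9 and 93.0 CPM in thymic and 163 and 166 CPM in splenic γδ T cells. The first step of Itgb2 measured 3.4 ± 0.26 (adjusted p = 8.7e-06) and the second 0.85 ± 0.23 (adjusted p = 0.013), and the second was lost without thymic WT replicate 1 (0.90, adjusted p = 0.057) or 2 (0.86, adjusted p = 0.06). Itgb3 (ENSMUSG00000020689), which pairs with αV, was highest in WT thymic γδ T cells, at 71.5 and 68.2 CPM against 38.9 and 39.3 CPM in the spleen and 4.71 and 4.59 CPM in DN cells. The thymic γδ T cell level was 3.93 ± 0.23 above that of DN cells (adjusted p = 2.1e-06), and the spleen lay 0.76 ± 0.20 below the thymus (log2 -0.76, adjusted p = 0.011), a call that was lost when any of the 4 libraries was left out (adjusted p = 0.057 to 0.07).

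Among the α subunits of WT cells, Itgad (ENSMUSG00000070369) stood higher in γδ T cells than in DN cells, at 20.6 and 20.4 CPM in splenic and 14.8 and 10.8 CPM in thymic γδ T cells against 0.95 and 1.01 CPM in DN cells. At full depth it had a UMI in 4.09% and 4.18% of splenic and 3.54% and 2.56% of thymic γδ T cells. Its CPM thus came from a small part of the cells. Its thymic difference from DN cells was 3.72 ± 0.32 (adjusted p = 1.6e-05), while its excess in the spleen over the thymus, 0.76 ± 0.27 (adjusted p = 0.043), was lost without any 1 of the 4 libraries (adjusted p = 0.063 to 0.22). Itgae, Itgal and Itgav were higher in WT thymic γδ T cells than in WT DN cells by 1.85 ± 0.30, 1.43 ± 0.20 and 1.64 ± 0.18 (adjusted p = 0.00085, 0.00027 and 6.2e-05) and did not pass the test between spleen and thymus, where their differences were -0.25, 0.14 and 0.30. With the pools as a block, Itgav did pass between spleen and thymus (0.30, adjusted p = 0.025). Itga4, the subunit of α4β7 and α4β1, was the member that did not pass between these 2 populations, at 434 and 346 CPM in WT DN cells and 280 and 284 CPM in WT thymic γδ T cells (-0.44 ± 0.32, adjusted p = 0.28). Itga4 then stood at 682 and 721 CPM in WT spleen, 1.39 ± 0.33 above the thymus (adjusted p = 0.0061). Itgb1 and Itga1 were the 2 members lower in WT thymic γδ T cells than in DN cells, by -0.48 ± 0.15 (adjusted p = 0.024) and -2.02 ± 0.54 (adjusted p = 0.012). Both calls depended on single libraries: that of Itgb1 was lost without thymic γδ WT replicate 1 (-0.51, adjusted p = 0.087) or 2 (-0.49, 0.086) or DN WT replicate 1 (-0.41, 0.11), and that of Itga1 without thymic γδ WT replicate 1 (-1.82, 0.086) or DN WT replicate 1 (-1.82, 0.056) and without a filter on low counts (-2.01, 0.057). Both genes were higher in WT spleen than in WT thymic γδ T cells, Itgb1 by 1.01 ± 0.15 (adjusted p = 0.00043) and Itga1 by 3.18 ± 0.54 (adjusted p = 0.001).

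**Figure D1:**
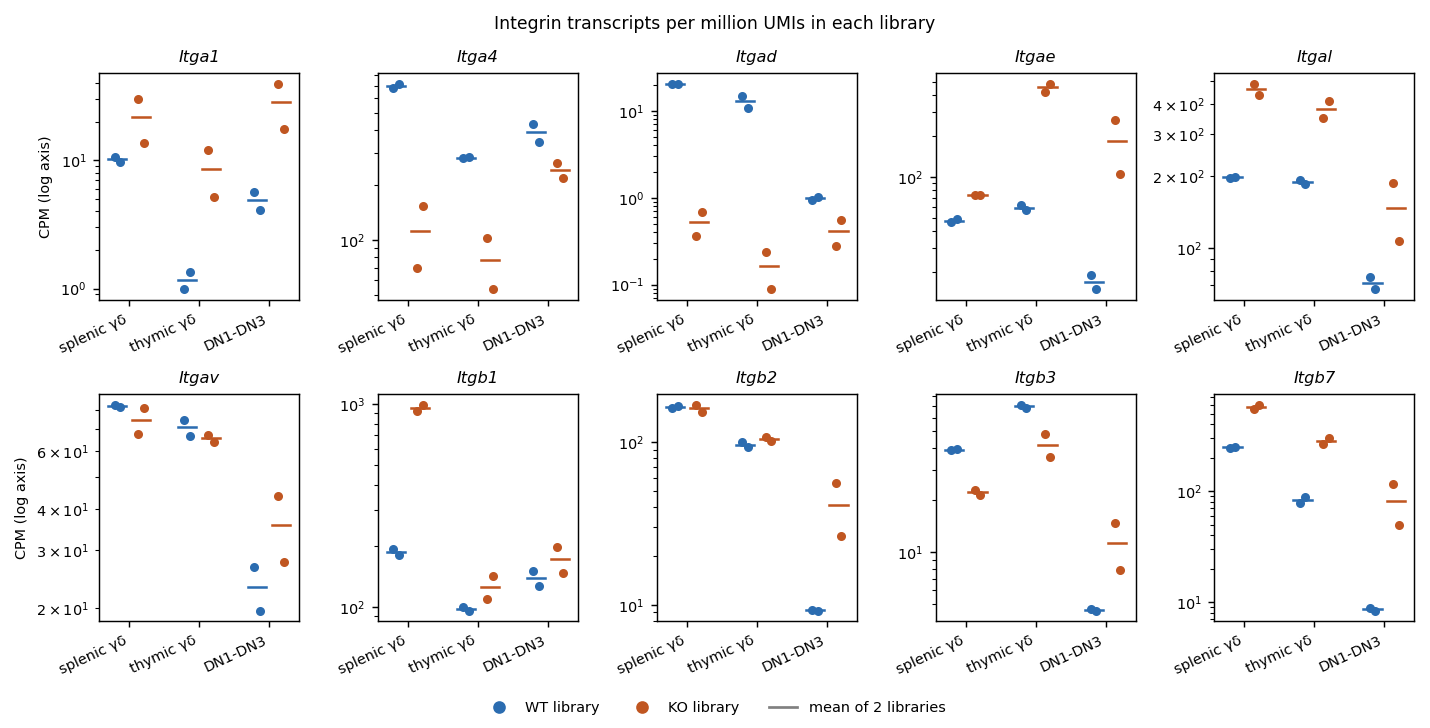
Level of each of the 10 integrin genes in CPM (log axis) in WT and GFI1 KO libraries of splenic γδ T cells, thymic γδ T cells and DN cells. Points are single libraries (2 per group) and bars their mean. Itgb1 in KO spleen sits at 921 and 993 CPM against 194 and 182 in WT spleen, and Itgad lies below 1 CPM in all 6 KO libraries.

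Most of the members differed between GFI1 KO and WT in each population, and the size and direction of the difference depended on the population. In splenic γδ T cells 6 of the 10 members passed the test, 3 higher and 3 lower in KO, against 54.7% of all genes tested (28.6% higher, 26.1% lower), with a median over the members of 0.40 against 0.00 over all genes. In thymic γδ T cells 8 passed, 5 higher and 3 lower, against 49.7% of genes (26.1% higher, 23.7% lower), with medians of 0.36 and -0.00. The calls of Itgb1 and Itgb3 among these were lost under alternatives given below, and 6 members passed with Trgv6-called cells left out. In DN cells 8 passed, 7 higher and 1 lower, against 23.0% of genes, of which 15.2% were higher and 7.73% lower, with medians of 1.14 and -0.02. In each population the 2 WT and the 2 KO libraries did not overlap for 9 of the 10 members, where this was so for 77.8% of genes in the spleen, 80.8% in thymic γδ T cells and 58.8% in DN cells. The share of members called was thus near that of all genes in the spleen and above it in thymic γδ T cells and in DN cells, where 5 members passed without WT replicate 2 or without KO replicate 1. Scaling by library totals in place of TMM moved the median of all genes by -0.22 in the spleen and -0.11 in thymic γδ T cells, and the log2 differences given are relative to the TMM scale. The 2 DN KO libraries differed from each other, with 1701 of 6990 cells carrying UMIs of both Ptcra and Il2ra in pool 1 and 3053 of 7557 in pool 2. In DN cells KO replicate 1 was farther from WT than replicate 2 for all members except Itga4.

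The subunits of αEβ7 rose together in the thymus. Itgae (ENSMUSG00000005947) stood at 61.9 and 57.2 CPM in WT and 428 and 490 CPM in KO thymic γδ T cells, and at 18.8 and 14.8 CPM in WT and 261 and 106 CPM in KO DN cells. The genotypes did not overlap in either population, the ratio of mean CPM was 7.71 in thymic γδ T cells and 10.9 in DN cells, and the differences were 3.07 ± 0.31 (adjusted p = 4.1e-05) and 3.43 ± 0.32 (adjusted p = 0.00011). The DN ratio was 13.9 in pool 1 and 7.14 in pool 2, and the DN difference was 2.70 without KO replicate 1. In the spleen Itgae was 46.3 and 48.7 CPM in WT and 73.1 and 73.6 CPM in KO, without overlap, and its difference of 0.72 ± 0.29 did not pass (adjusted p = 0.061). It did pass with the pools as a block (0.72, adjusted p = 0.024), in DESeq2 (0.70, adjusted p = 0.026) and in a fit of the 4 splenic libraries (0.68, adjusted p = 0.00018). Haspin, a gene that lies inside Itgae on the opposite strand in another mouse build, stood at 9.53 and 10.8 CPM in WT and 44.9 and 48.0 CPM in KO spleen but at 11.5 to 20.4 CPM in all thymic libraries, so that splenic Itgae counts, unlike thymic ones, moved beside those of an overlapping gene. Over all 6 groups Itgae was in the order KO thymic γδ, KO DN, KO spleen, WT thymic γδ, WT spleen and WT DN, and no neighbours in that order overlapped.

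Itgb7 was higher in KO in all 3 populations. It stood at 544 and 601 CPM in the KO libraries of the spleen, at 264 and 303 CPM in those of thymic γδ T cells and at 115 and 49.2 CPM in those of DN cells, above each WT library of the same population. The differences from WT were 1.31 ± 0.27 in spleen (adjusted p = 0.0027), 1.90 ± 0.28 in thymic γδ T cells (adjusted p = 0.00037) and 3.23 ± 0.30 in DN cells (adjusted p = 0.00011), the last a ratio of 9.52 from a WT level under 9 CPM. That ratio was 13.0 in pool 1 and 5.86 in pool 2, and the DN difference was 2.55 without KO replicate 1. KO DN cells thereby overlapped WT thymic γδ T cells in Itgb7, the only neighbours in its order of 6 groups that did so.

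Itga4 (ENSMUSG00000027009) moved the other way. It fell from 682 and 721 CPM in WT to 70.3 and 152 CPM in KO spleen, and from 280 and 284 to 102 and 53.4 CPM in thymic γδ T cells. The KO libraries lay below every WT library although they differed between themselves, pool 1 being the lower in the spleen and pool 2 in the thymus, and WT exceeded KO 6.30-fold in spleen. The log2 difference was -2.57 ± 0.34 in the spleen (adjusted p = 0.00014) and -1.75 ± 0.33 in thymic γδ T cells (adjusted p = 0.0017), and the splenic one was -3.20 without KO replicate 2 (adjusted p = 9.8e-05). In DN cells Itga4 was 434 and 346 CPM in WT and 265 and 219 CPM in KO, without overlap, and its difference of -0.69 ± 0.32 did not pass (adjusted p = 0.15). A fit of the 4 DN libraries alone did call it (-0.67, adjusted p = 0.04).

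Itgb1 (ENSMUSG00000025809), the common β chain for matrix and Vcam1 binding, rose most in the spleen, from 194 and 182 CPM in WT to 921 and 993 CPM in KO. Both KO libraries lay above both WT libraries, the ratio of means was 5.10, and the difference was 2.44 ± 0.16 (adjusted p = 1.1e-06). In thymic γδ T cells Itgb1 was 100 and 96.3 CPM in WT and 110 and 142 CPM in KO, without overlap, and its difference of 0.49 ± 0.15 (adjusted p = 0.022) was small and fragile. It was lost on library totals (0.38, adjusted p = 0.055), with Trgv6-called cells left out (0.37, adjusted p = 0.062), and without thymic γδ WT replicate 1 (0.52, 0.076), WT replicate 2 (0.45, 0.11) or KO replicate 2 (0.24, 0.23). In DN cells the levels of 151 and 127 CPM in WT and 197 and 147 CPM in KO overlapped (0.30 ± 0.15, adjusted p = 0.19). Apart from KO spleen, the neighbouring groups in the order of Itgb1 overlapped from WT spleen down to KO thymic γδ T cells.

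Itga1 (ENSMUSG00000042284), the collagen-binding partner of β1, was low in all groups and rose in KO thymic γδ T cells and KO DN cells. It stood at 0.98 and 1.35 CPM in WT and 12 and 5.20 CPM in KO thymic γδ T cells, and at 5.68 and 4.06 CPM in WT and 39.5 and 17.5 CPM in KO DN cells, in both cases without overlap. The differences were 2.97 ± 0.54 (adjusted p = 0.0013) and 2.53 ± 0.49 (adjusted p = 0.005). The first was 2.31 without KO replicate 1 (adjusted p = 0.015), and the DN call was lost without WT replicate 2 (2.35, adjusted p = 0.051) or KO replicate 1 (1.89, adjusted p = 0.082). In the spleen 10.5 and 9.71 CPM in WT against 29.8 and 13.5 CPM in KO gave 1.20 ± 0.47, which did not pass (adjusted p = 0.052). That difference passed with the pools as a block (1.08, adjusted p = 0.045), in DESeq2 (1.18, adjusted p = 0.017) and without KO replicate 2 (1.68, adjusted p = 0.017), and was 0.49 without KO replicate 1 (adjusted p = 0.43). In every population the KO library of pool 1 was the higher of the pair.

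The leukocyte integrin genes Itgal, Itgad and Itgb2 did not move as a unit. Itgal (ENSMUSG00000030830), whose product binds Icam1, rose in all 3 populations, from 197 and 199 to 489 and 436 CPM in spleen, from 192 and 186 to 350 and 412 CPM in thymic γδ T cells and from 75.6 and 67.2 to 187 and 107 CPM in DN cells. Its differences were 1.32 ± 0.20, 1.14 ± 0.19 and 1.03 ± 0.19 (adjusted p = 0.00027, 0.00086 and 0.0043), and the genotypes overlapped in none. Without KO replicate 1 the DN difference was 0.63 (adjusted p = 0.0076). Itgad fell below 1 CPM in KO γδ T cells, to 0.36 and 0.69 CPM in spleen (17 and 48 UMIs in whole libraries) and to 0.24 and 0.09 CPM in thymus (10 and 4 UMIs). At full depth it was seen in 0.18% and 0.39% of KO against 4.09% and 4.18% of WT splenic cells. In thymic γδ T cells it was seen in 0.13% and 0.05% of KO against 3.54% and 2.56% of WT cells. Its differences of -5.14 ± 0.35 in spleen (adjusted p = 1.7e-06) and -6.19 ± 0.42 in thymic γδ T cells (adjusted p = 5.5e-06) were the largest of any member, the second being -6.99 without KO replicate 1 (adjusted p = 3.7e-05). The listed NK markers, Gzma among them, were lower in sum in the same KO libraries of both tissues. Of these, 3 of 4 passed as lower in spleen and 2 of 4 in thymic γδ T cells. Which cells carried them, and any part in the Itgad difference, was not tested. In DN cells Itgad was low in WT too, 0.95 and 1.01 CPM against 0.28 and 0.55 CPM in KO, and its call (-1.20 ± 0.39, adjusted p = 0.049) was lost without a filter on low counts (adjusted p = 0.055), in the fit of the 4 DN libraries (adjusted p = 0.11), and without WT replicate 1 (-1.32, 0.12), WT replicate 2 (-1.12, 0.17) or KO replicate 1 (-0.79, 0.25), and it was -1.90 without KO replicate 2 (adjusted p = 0.011).

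Itgb2, the β chain that both of these α subunits need, did not pass the test in γδ T cells of either tissue. It was 163 and 166 CPM in WT and 170 and 153 CPM in KO spleen, which overlapped, with a difference of 0.07 ± 0.23 (adjusted p = 0.81) that turned to -0.16 on library totals. In thymic γδ T cells it was 99.9 and 93.0 CPM in WT and 108 and 101 CPM in KO (0.24 ± 0.23, adjusted p = 0.42), and a fit of the 4 thymic γδ libraries alone did call it (0.24, adjusted p = 0.022). In DN cells it rose from 9.35 and 9.23 CPM to 55.9 and 26.4 CPM, a ratio of 4.43 and a difference of 2.13 ± 0.25 (adjusted p = 0.00037). The Itgb2 level of KO DN cells remained below that of all 8 γδ T cell libraries.

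Of the αV and β3 pair, Itgav (ENSMUSG00000027087) differed little between the genotypes and Itgb3 changed direction between populations. Itgav was 83.1 and 82.0 CPM in WT and 67.5 and 81.4 CPM in KO spleen (-0.05 ± 0.17, adjusted p = 0.81) and 74.8 and 66.9 against 67.1 and 64.1 CPM in thymic γδ T cells (0.01 ± 0.17, adjusted p = 0.96), a difference whose sign turned on library totals (-0.10). In DN cells it was 26.7 and 19.6 CPM in WT and 43.7 and 27.6 CPM in KO, and the rise of 0.62 ± 0.17 (adjusted p = 0.03) was lost without WT replicate 2 (0.45, 0.19), without KO replicate 1 (0.30, 0.22) and in the fit of the 4 DN libraries (0.64, 0.12). Itgb3 fell from 38.9 and 39.3 to 23.0 and 21.4 CPM in splenic cells, fell from 71.5 and 68.2 to 48.2 and 35.7 CPM in thymic γδ T cells, and rose from 4.71 and 4.59 to 14.7 and 7.84 CPM in DN cells. The 3 differences were -0.72 ± 0.20 (adjusted p = 0.013), -0.62 ± 0.20 (adjusted p = 0.027) and 1.25 ± 0.22 (adjusted p = 0.0031), and the genotypes overlapped in none. The splenic call was lost without KO replicate 2 (-0.64, adjusted p = 0.079), and the thymic γδ call without WT replicate 1 (-0.58, 0.11), WT replicate 2 (-0.66, 0.077) or KO replicate 2 (-0.45, 0.19) and with Trgv6-called cells left out (-0.38, 0.16). The DN difference was 0.80 without KO replicate 1 (adjusted p = 0.0042).

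**Figure D2:**
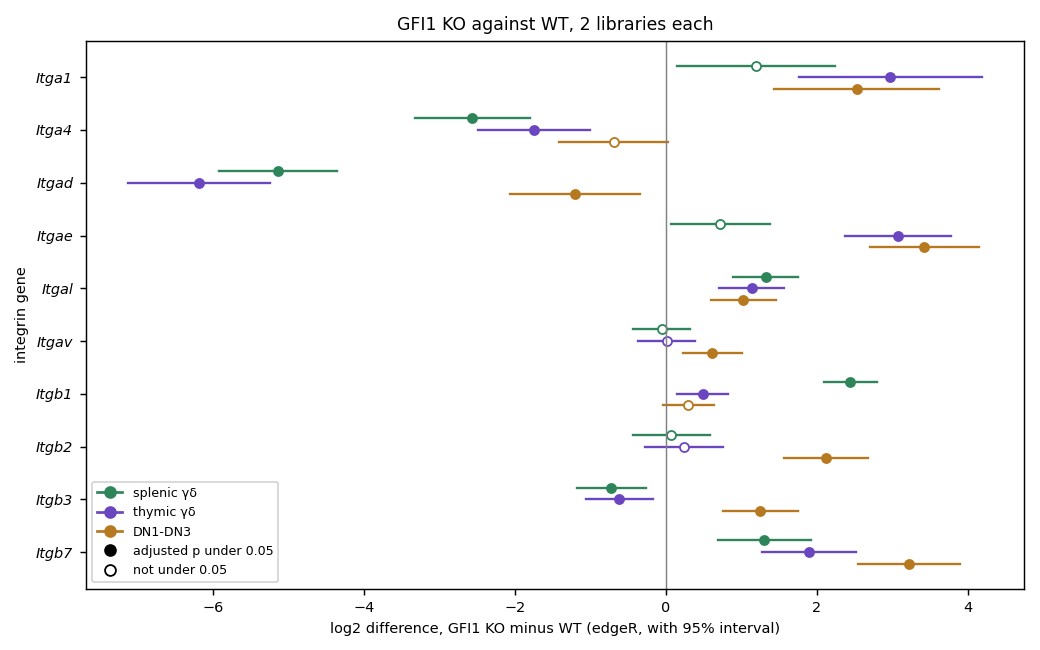
Log2 difference of GFI1 KO minus WT for the 10 integrin genes in splenic γδ T cells, thymic γδ T cells and DN cells, from edgeR on 2 libraries per group. Bars are 95% intervals and filled points have an adjusted p under 0.05: Itgb1 rises mainly in the spleen (2.44), Itgae in the thymus (3.07 and 3.43), Itgad falls in both γδ T cell populations (-5.14 and -6.19), and Itgb3 changes sign in DN cells (1.25).

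Whether the KO difference itself differed between populations was tested as an interaction. Between spleen and thymic γδ T cells 2 of the 10 members passed, where 29.6% of genes did (13.7% higher and 15.9% lower, where higher means a larger KO difference in the spleen): the Itgb1 rise was larger in the spleen by 1.96 ± 0.22 (adjusted p = 0.0002), and the Itgae rise was smaller there (-2.35 ± 0.42, adjusted p = 0.0028). Between thymic γδ T cells and DN cells 4 members passed, where 21.9% of genes did (8.83% higher, 13.0% lower), all with a lower value of KO minus WT in the γδ T cells. Itgad fell further there (-4.98 ± 0.61, adjusted p = 0.00063), Itgb3 fell there and rose in DN cells (-1.87 ± 0.30, adjusted p = 0.0024), and Itgb2 (-1.88 ± 0.34, adjusted p = 0.0042) and Itgb7 (-1.33 ± 0.39, adjusted p = 0.037) had positive differences in both that were smaller in the γδ T cells. The Itgb7 call was lost without a filter on low counts (adjusted p = 0.097) and without thymic γδ WT replicate 1 (-1.42, 0.079) or 2 (-1.25, 0.11), thymic γδ KO replicate 1 (-1.20, 0.12) or 2 (-1.48, 0.081), or DN WT replicate 1 (-1.36, 0.089) or 2 (-1.33, 0.099), and the difference was -0.73 without DN KO replicate 1 (adjusted p = 0.0081). That of Itgad was -5.78 without thymic γδ KO replicate 1 (adjusted p = 0.001) and -4.35 without DN KO replicate 2 (adjusted p = 0.0023). Itgav did not pass this second interaction (-0.60, adjusted p = 0.11), but did with the pools as a block (-0.59, adjusted p = 0.017) and without DN KO replicate 2 (-0.89, adjusted p = 0.0055). Without that library Itgae passed too (-0.87, adjusted p = 0.004), and Itga4 passed in DESeq2 (-1.08, adjusted p = 0.049). In the first interaction Itga1 passed in DESeq2 (-1.78, adjusted p = 0.021) and without splenic KO replicate 1 (-2.49, adjusted p = 0.031), and Itga4 without splenic KO replicate 2 (-1.45, adjusted p = 0.026). The thymic γδ and DN libraries came from the same mice, which the fit did not model.

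The γδ T cell libraries mix cells by the receptor γ chain they transcribe, and this mix differed between the genotypes. Cells in which Trgv6 had more UMIs than any other γ variable gene (Trgv6-called cells) numbered 188 and 229 in WT and 3422 and 4613 in KO spleen, and 41 and 57 in WT and 2028 and 2691 in KO thymic γδ T cells. Groups of cells were fitted on 4 libraries, so that with a library left out the remaining one of its genotype is assumed to vary like the pair of the other genotype. A Trgv call is no proof of the receptor, since 3552 of 7207 WT DN cells of pool 1 were Trgv2-called. Within splenic Trgv6-called cells Itgb1 was 912 and 816 CPM in WT and 949 and 1005 CPM in KO, beside 921 and 993 CPM over all KO splenic cells. Its difference there was 0.13 ± 0.14 with a 95% interval from -0.17 to 0.43 (adjusted p = 0.63). In splenic Trgv2-called cells, by contrast, Itgb1 was 174 and 166 CPM in WT and 901 and 1005 CPM in KO, and in Trgv1-called cells 135 and 145 CPM in WT and 803 and 860 CPM in KO. Over the 3 other classes compared, called for Trgv1, Trgv2 or Trgv4, Itgb1 thus lay between 135 and 174 CPM in WT and between 710 and 1005 CPM in KO splenic cells. The γδT17 markers ran alongside: their sum was 5194 and 4536 CPM in WT and 7898 and 8273 CPM in KO Trgv6-called splenic cells. In splenic cells that were not Trgv6-called it was 604 and 628 CPM in WT and 7453 and 8115 CPM in KO. Within splenic Trgv6-called cells 6 of the 7 markers passed as higher in KO and 1 as lower.

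Itgb7 followed the same arrangement in the spleen. It was 563 and 435 CPM in WT and 548 and 603 CPM in KO Trgv6-called cells, which overlapped (0.16, adjusted p = 0.58), against 239 and 241 CPM in WT and 511 and 589 CPM in KO Trgv2-called cells. Without splenic WT replicate 1 this Trgv6-called difference passed (0.40, adjusted p = 0.046), and without WT replicate 2 its sign turned (-0.03, adjusted p = 0.94). Of the 10 members only Itgb3 passed the test in splenic Trgv6-called cells, where 12% of genes did (5.20% higher, 6.80% lower), at 51.9 and 39.1 CPM in WT and 20.9 and 20.5 CPM in KO (-1.17 ± 0.18, adjusted p = 0.0013). Itga4 was 240 and 487 CPM in WT and 71.2 and 155 CPM in KO Trgv6-called cells, a difference of -1.74 (adjusted p = 0.27). It passed with the pools as a block (-1.74, adjusted p = 1.2e-05), in DESeq2 (-1.75, adjusted p = 0.00026) and without KO replicate 2 (-2.38, adjusted p = 0.013). Itgal, at 366 and 321 CPM in WT and 500 and 443 CPM in KO, did not pass either (0.42, adjusted p = 0.085), but did so with the block (0.41, adjusted p = 0.029), without a filter on low counts (0.44, adjusted p = 0.024) and without WT replicate 1 (0.55, adjusted p = 0.0052). Itga1 passed there without KO replicate 2 (2.20, adjusted p = 0.0019). With the block 3 members were called in these cells in place of 1.

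In the thymus Itgae differed between the genotypes within Trgv6-called cells as well, at 147 and 157 CPM in WT and 518 and 562 CPM in KO. The difference was 1.91 ± 0.16 (adjusted p = 7e-06), and Trgv2-called thymic cells went from 57.3 and 53.8 CPM to 347 and 400 CPM. Of 9 members tested there 4 passed, where 15.9% of genes did (7.51% higher, 8.39% lower): Itgb7 rose by 0.85 ± 0.17 (adjusted p = 0.0041) and Itgal by 0.74 (adjusted p = 0.017), and Itgb3 fell by a log2 difference of 1.11 (adjusted p = 0.011). The WT libraries held 41 and 57 such cells, of which 22 and 19 had at least 2 Trgv6 UMIs. They shared droplet runs with the 2028 and 2691 Trgv6-called cells of KO. The paper reports cells of its thymic Trgv6+ cluster from GFI1 KO mice only. Whether the WT calls came from free RNA of the run or from cells of another kind was not tested. Summed γδT17 markers of thymic Trgv6-called cells were 2594 and 3680 CPM in WT and 8426 and 7851 CPM in KO. Of the 7 markers 6 passed as higher in KO there. Trgv6-called cells of the 2 genotypes thus differed in these markers, and the part of this in the member differences was not tested. The Itgae call held under all 9 alternatives, and that of Itgb7 was lost only with at least 2 UMIs asked of Trgv6 (0.54, adjusted p = 0.16). That of Itgal was lost without WT replicate 1 (0.51, 0.078) or KO replicate 2 (0.65, 0.09), and that of Itgb3 without WT replicate 1 (-1.08, 0.065), WT replicate 2 (-1.10, 0.08) or KO replicate 2 (-1.02, 0.095), and Itgal was 1.15 without WT replicate 2 (0.0061). Calling a cell only with at least 2 UMIs left Itgae alone past the threshold. Itga4 in thymic Trgv6-called cells stood at 151 and 232 CPM in WT and 79.5 and 22.7 CPM in KO and did not pass (-1.88, adjusted p = 0.43), but did in DESeq2 (-1.85, adjusted p = 0.045). Its difference was -3.01 without KO replicate 1 and -1.23 without KO replicate 2, and although both fits called it, they leave out the spread between these 2 unlike KO libraries. Itga1 had 0 UMIs in the WT Trgv6-called cells, where 3 UMIs would be 10.3 and 8 CPM, and 7.99 and 5.37 CPM in KO, so no fold is given. With all Trgv6-called cells left out of the whole-population comparison, 6 members passed in the spleen and 6 in thymic γδ T cells. Splenic Itgb1 was at 2.55, Itgb7 at 1.32 and Itga4 at -2.62. The splenic cells left had summed γδT17 markers of 604 and 628 CPM in WT and 7453 and 8115 CPM in KO. In thymic γδ T cells these sums were 857 and 725 CPM in WT and 4527 and 5867 CPM in KO. Cells with γδT17 markers thus remained, so this comparison cannot show a difference outside them.

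**Figure D3:**
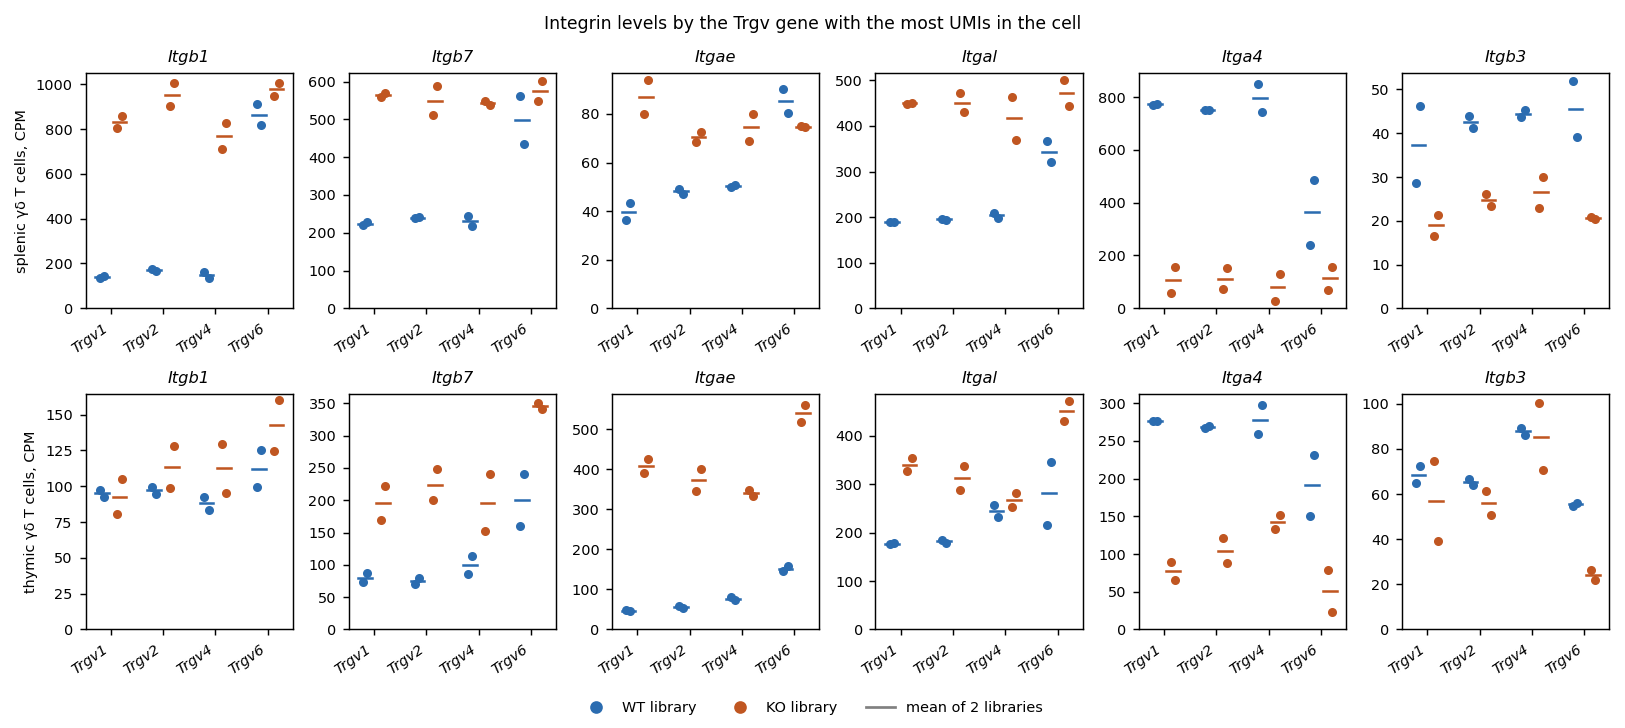
CPM of 6 integrin genes in splenic (upper row) and thymic (lower row) γδ T cells grouped by the γ variable gene with the most UMIs in the cell, for WT and GFI1 KO. Points are libraries (2 per genotype) and bars their mean. Splenic Itgb1 is at 912 and 816 CPM in WT Trgv6-called cells and between 135 and 174 CPM in the other WT classes.

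The DN sort held cells of several kinds, and the members were looked at in cells with UMIs of both Ptcra, the pre-T-cell-receptor α chain, and Il2ra, which together mark late DN cells. These were 2789 and 3052 cells in WT and 1701 and 3053 cells in KO. Of the 10 members 6 were higher in KO there and none lower, where 14.0% of genes passed (9.27% higher, 4.72% lower), among them Itgb7 (3.83 and 2.27 CPM in WT, 27.1 and 14.3 in KO) and Itgae (11.6 and 10.5 CPM in WT, 67.2 and 37.0 in KO). Itgb7 rose by 2.74 ± 0.34 (adjusted p = 0.0049), Itgae by 2.22 ± 0.25 (0.0031), Itga1 by 1.64 (0.034), Itgb2 by 1.09 (0.011), Itgb3 by 0.89 (0.035) and Itgal by 0.43 (0.015). Leaving out WT replicate 2 removed all 6 calls and leaving out WT replicate 1 left 2. Without KO replicate 1 the Itgb3 call was lost (0.56, adjusted p = 0.13) and Itga4 was called (-0.63, adjusted p = 0.0021), and without KO replicate 2 Itgav was called (0.36, adjusted p = 0.045). Without a filter on low counts Itgae and Itgb7 were lost (adjusted p = 0.086 and 0.085), and Itgb3 was lost in DESeq2 (adjusted p = 0.068) and with at least 2 UMIs asked of each gene (adjusted p = 0.11). Itga1 was 2.44 without WT replicate 1 (adjusted p = 0.0045) and 2.60 with at least 2 UMIs asked (adjusted p = 0.00019). Itga4 was also called in DESeq2 (-0.40, adjusted p = 0.039), without a filter on low counts (-0.41, adjusted p = 0.045) and with the pools as a block (-0.41, adjusted p = 0.00013), and with the block 3451 genes in place of 1789 were called. Cells with no UMI of either gene were 1111 and 1200 in WT and 2474 and 1949 in KO, and carried higher levels in both genotypes, Itgae at 62.9 and 38.6 CPM in WT and 502 and 318 CPM in KO, and Itgb7 at 29.2 and 28.4 against 194 and 136 CPM. The summed γδT17 markers were 68.2 and 65.3 CPM in WT and 607 and 474 CPM in KO cells with both genes, and 276 and 260 against 1779 and 1244 CPM in cells with neither.

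Members were also read as shares of cells with a UMI, after each cell was thinned to 2000 UMIs. Thinning left out 123 to 1190 shallower cells a library. In the spleen 24.0% and 22.7% of WT and 70.6% and 75.2% of KO cells had an Itgb1 UMI, and 55.5% and 57.7% of WT but 10.4% and 20.5% of KO cells an Itga4 UMI. In thymic γδ T cells 12.4% and 12.3% of WT and 54.0% and 60% of KO cells had an Itgae UMI. Itgb7 was seen in 2.01% and 2.06% of WT and 21.6% and 11.1% of KO DN cells. For 25 of the 30 pairs of member and population the WT and KO shares did not overlap. With 2 libraries a group the exact two-sided permutation test cannot go below 0.33. Thymic γδ Itgb1, called on CPM, overlapped in shares (18.5% and 17.3% in WT, 18.2% and 23.3% in KO). Without thinning 28 of the 30 pairs were separate, and the splenic shares of Itgb1 were 41.5% and 41.5% in WT and 86.3% and 90.2% in KO. Neither count was made over all genes. On CPM 77.8% of genes did not overlap in spleen, 80.8% in thymic γδ T cells and 58.8% in DN cells. The counts therefore cannot be read as particular to the members. Free RNA of a droplet run reaches WT and KO cells of that run alike, and no cell type that lacks these subunits was sorted, so the background share was not measured.

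**Figure D4:**
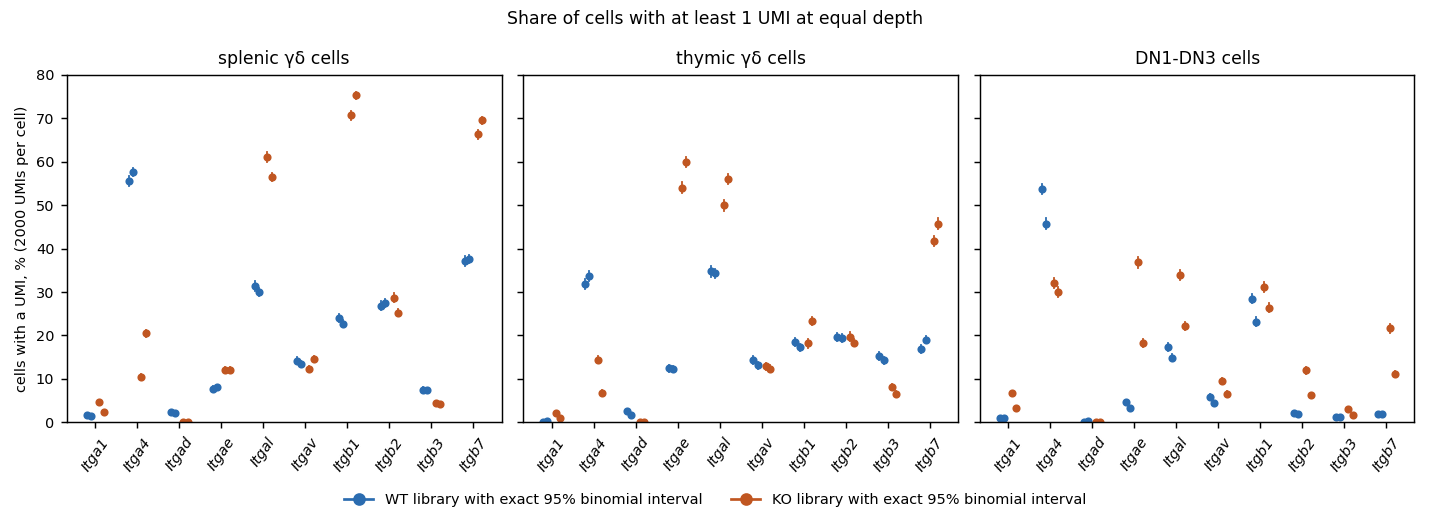
Share of cells (%) with at least 1 UMI of each integrin gene after thinning to 2000 UMIs per cell, in splenic γδ T cells, thymic γδ T cells and DN cells. Points are libraries, with exact 95% binomial intervals that cover counting error only. Itga4 falls from 55.5% and 57.7% in WT to 10.4% and 20.5% in KO spleen, and Itgb1 rises to 70.6% and 75.2%.

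The partners of a pair were next looked for in the same cell, as a description. Itgae and Itgb7 UMIs occurred together in 3.42% to 3.68% of WT and 23.6% to 28.4% of KO thymic γδ T cells, in 0.565% to 0.679% of WT and 4.97% to 13.5% of KO DN cells, and in 3.80% to 4% of WT and 8.40% to 8.42% of KO splenic cells. Divided by the product of the single shares, the joint share was 7.30 to 8.03 in WT DN cells, 1.69 to 2.46 in KO DN cells, 1.57 to 1.63 in WT thymic γδ T cells and 1.00 to 1.05 in KO γδ T cells of both tissues. In WT spleen it was 1.25 to 1.39. The ratio cannot exceed 1 over the larger single share, which is a lower ceiling where the genes are seen in more cells, so the groups cannot be ranked by it. Itga4 and Itgb7 occurred together in 18.7% to 20.2% of WT and 6.92% to 14.4% of KO splenic cells, and Itga4 and Itgb1 in 13.4% to 13.7% and 8% to 16.4%, where WT and KO overlapped. In DN cells the joint share of Itga4 and Itgb7 was below the product, 0.55 to 0.57 of it in WT and 0.68 in KO. Itgal and Itgb2 occurred together in 8% to 8.26% of WT and 14.5% to 17.8% of KO splenic cells. Missed molecules lower every joint share.

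Of the 17 other integrin subunits in the files 14 could be tested. In KO spleen 3 were higher and 5 lower, in thymic γδ T cells 4 higher and 5 lower, and in DN cells 5 higher and none lower, with medians of -0.57, -0.18 and 0.10. Over all genes 54.7%, 49.7% and 23.0% passed in the 3 populations. Itgb5, another partner of αV, rose in all 3 populations, from 5.16 and 4.32 to 136 and 171 CPM in spleen (5.12 ± 0.48, adjusted p = 1.4e-05), from 1.29 and 1.91 to 100 and 105 CPM in thymic γδ T cells (6.11 ± 0.51, adjusted p = 1.5e-05) and from 0.47 and 0.45 to 17.7 and 4.75 CPM in DN cells (4.56, adjusted p = 0.00053). It also rose within splenic and thymic Trgv6-called cells (2.13 and 2.66, adjusted p = 3.6e-05 and 7.2e-05), where Itgav measured -0.12 and 0.25 and did not pass. Itga5, the fibronectin-binding partner of β1, rose from 10.3 and 8.18 to 68.8 and 90.9 CPM in spleen (3.21, adjusted p = 6.3e-07) and from 5.45 and 5.19 to 18.7 and 23.1 CPM in thymic γδ T cells (2.10, adjusted p = 1.6e-05).

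Itga6, which binds laminin with β1 or β4, fell from 41.9 and 41.8 to 13.7 and 13.5 CPM in KO spleen (-1.53, adjusted p = 5e-06), while its partner Itgb4 rose from 3.02 and 2.40 to 11.4 and 14.7 CPM there (2.37, adjusted p = 9.3e-06) and fell in splenic Trgv6-called cells (-0.94, adjusted p = 0.02). Itga9 fell from 6.22 and 5.81 to 0.43 and 0.52 CPM in spleen and rose in DN cells from 6.47 and 5.17 to 22.9 and 28.8 CPM (2.16, adjusted p = 8e-05). Itgb8, which with αV frees active TGF-β, fell from 13.9 and 10.1 to 0.97 and 0.53 CPM in thymic γδ T cells (-3.89, adjusted p = 1e-05), and KO spleen held only 1 and 2 of its UMIs. Of the subunits bound by the depletion antibodies, Itgam and Itgax stayed at or below 0.73 and 1.09 CPM in every library. Itga2 was 21.1 and 22.8 CPM in WT and 30.6 and 29.3 CPM in KO spleen, which did not pass (adjusted p = 0.17), and its level is that of cells left after the depletion.

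**Figure D5:**
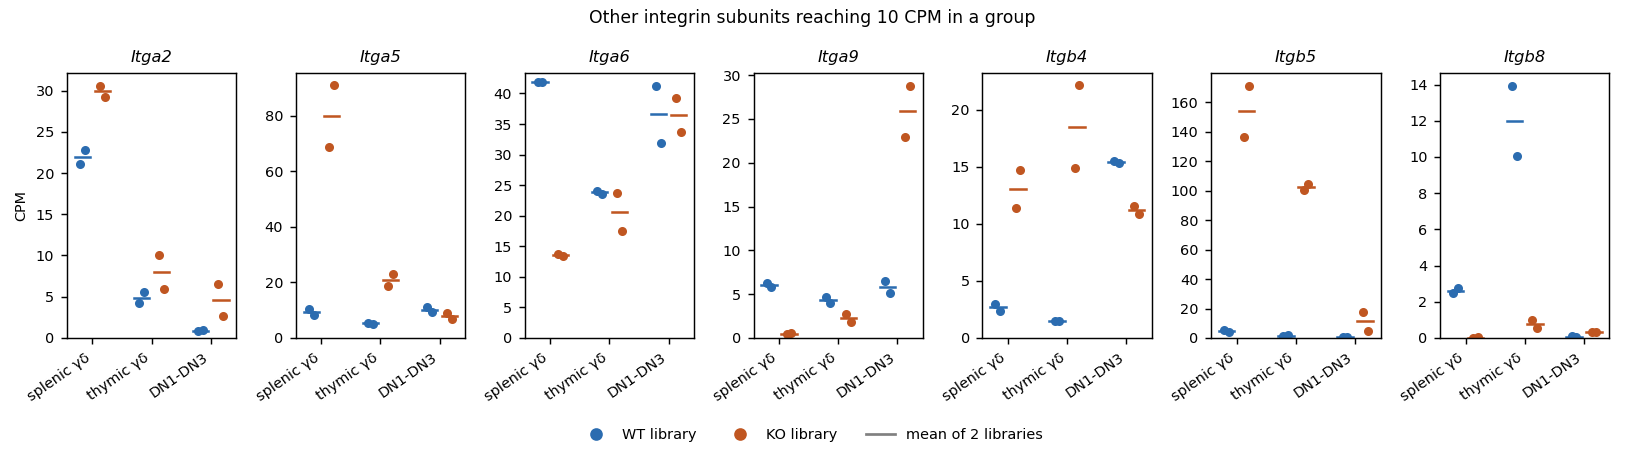
CPM of 7 other integrin subunit genes in WT and GFI1 KO libraries of the 3 populations. Points are libraries (2 per group) and bars their mean. Itgb5 reaches 136 and 171 CPM in KO spleen from 5.16 and 4.32 in WT, and Itgb8 falls in KO thymic γδ T cells to 0.97 and 0.53 CPM.

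Genes listed for the control of integrin activation or for the link to the cytoskeleton were called in both directions, as were all genes. The list was not split by whether a gene favours or hinders binding. Of 21 tested, 10 were higher and 5 lower in KO spleen, 8 and 8 in thymic γδ T cells, and 6 and 1 in DN cells, with medians of 0.24, 0.15 and 0.21, where 28.6% of all genes were higher and 26.1% lower in spleen, 26.1% and 23.7% in thymic γδ T cells and 15.2% and 7.73% in DN cells. In the spleen the adaptor Skap2 (1.08, adjusted p = 4e-05) and the β1-tail binder Itgb1bp1 (0.89, adjusted p = 1.4e-05) rose, while Fyb, the adaptor that joins Skap1 to the actin machinery (-3.79, adjusted p = 1.2e-06), and Skap1 itself (-1.13, adjusted p = 3.2e-05) fell. In thymic γδ T cells Skap2 (0.97, adjusted p = 0.00012) and the focal adhesion kinase gene Ptk2 (0.95, adjusted p = 0.0031) rose, and Fyb (-1.18, adjusted p = 0.0013) and paxillin, Pxn (-0.72, adjusted p = 0.00011), fell. In DN cells Ptk2 (1.70, adjusted p = 0.00043) and the related kinase gene Ptk2b (0.88, adjusted p = 0.019) rose, and Pxn fell (-0.46, adjusted p = 0.0043). Of 9 integrin ligand genes tested, 0 rose and 1 fell in spleen, and 2 rose and 0 fell in each thymic population: Icam1, the αLβ2 ligand, in both (1.72 and 1.12, adjusted p = 0.00021 and 0.0082), with Cdh1, the gene of E-cadherin, in DN cells (1.07, adjusted p = 0.046).

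TGF-β is known to raise Itgae transcription, so 10 genes of its pathway were counted beside it. In spleen 2 rose and 4 fell (median -0.42), in thymic γδ T cells 2 rose and 2 fell (0.04), and in DN cells 6 rose and 1 fell (0.43), against 54.7%, 49.7% and 23.0% of all genes called in either direction. The receptor gene Tgfbr1 fell in thymic γδ T cells (-0.96, adjusted p = 5.1e-05) and DN cells (-0.35, adjusted p = 0.034), and Tgfbr2 rose in DN cells (1.5, adjusted p = 0.0012). Skil, a repressor of SMAD proteins, rose in thymic γδ T cells (1.39, adjusted p = 0.00049) and DN cells (2.01, adjusted p = 0.00029) and fell in spleen (-0.85, adjusted p = 0.0079), and Smad3 (0.76, adjusted p = 0.00047) and the ligand gene Tgfb1 (0.61, adjusted p = 0.0011) rose and Smad7 fell (-0.86, adjusted p = 0.0035) in spleen. Ski, related to Skil, rose in thymic γδ T cells (0.63, adjusted p = 0.025).

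As a description of pattern, the genes most like each member over the 12 libraries were found by Pearson's r of log2 CPM. The points share population, pool and mice, and r over them mainly follows differences between groups. The closest were Smchd1 for Itga4 (r = 0.97), Rgs1 for Itgae (0.95), Ppp2cb for Itgb1 (0.95), Phf11b for Itgb7 (0.99) and Ccnd2 for Itgal (0.995). For Itgb2 the closest was Tnfaip8l2 (0.99), for Itgav Mtmr12 (0.99), for Itgb3 Rasa2 (0.98) and for Itga1 Hsd17b11 (0.92). Itgad was too low for this reading.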

How the data were processed

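Sorted mouse cells were sequenced with the 10x 3′ v3.1 kit. The deposited values are raw UMI counts, per gene in each cell, which the authors made with Cell Ranger 8.0.1 on GRCm39 (per the submitters' processing notes). They came split into WT and KO cells by hashtag, a step for which the paper names hashsolo. Splitting by hashtag can remove only doublets of unlike genotype. No doublet caller was run here, and whether introns or strand were used in counting was not given in the sources used here. Compartment and pool came from the sample titles and genotype from the library names inside the files. Barcodes under 500 UMIs, under 200 genes or over 20% mitochondrial UMIs were dropped, which kept 96911 of 97404 cells. The 2 hashtag features and 9538 ribosomal, Gm-numbered and mitochondrial genes were left out, as the study did. The study compared cells, whereas here UMI sums per library were tested in edgeR 4.0.16 (TMM, filterByExpr, robust quasi-likelihood F test, R 4.3.3) over all 12 libraries, or 4 for groups of cells, with Benjamini-Hochberg adjustment over all genes tested and calls at 0.05. CPM was taken on library totals, and shares of cells on cells thinned to 2000 UMIs, with exact 95% binomial intervals that cover counting error only.

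The members, lists, groups of cells and tests were chosen with earlier results of these data known. The 10 members were always named, with other subunits at a mean of at least 10 CPM in any group, the 2 strongest rises and falls called of each list at a mean of at least 10 CPM, and for likeness the 3 genes of highest r of log2(CPM + 1) at a mean of at least 20 CPM. Of the likeness genes only the first of each member is shown. WT and KO of a number shared a droplet run, so the pools pair them, and the pool deviations of WT and KO correlated at r = 0.26 in spleen, 0.06 in thymic γδ T cells and 0.16 in DN cells. The fit was tested on simulated data with 200 changed genes. Of the 2-fold changes 83% were recovered in the spleen comparison, 89% in thymic γδ T cells and 90% in DN cells. In groups of cells 61% were recovered in splenic Trgv6-called, 29% in thymic Trgv6-called and 87% in DN cells with Ptcra and Il2ra. Every simulated gene had the same set spread between libraries, and the changed genes were drawn from better-counted ones. Far fewer genes changed than were called in the data, so these shares are not the power of the real comparisons. Alternatives were DESeq2 1.42.0, no filter on low counts, no filter on cells, the excluded genes kept, cells with markers of other types left out, a pool block, a fit of 4 libraries, a stricter UMI minimum for groups of cells, other thinning and each library left out. Scaling by library totals and leaving out Trgv6-called cells were added after seeing the data. The result of 1 marker list is not reported here.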

Additional observations from a re-analysis of the deposited data

Results flagged for a closer look

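For 6 tests the KO difference of a member itself differed between populations, with values as log2 and adjusted p from edgeR. From thymic γδ T cells to the spleen the KO difference was larger for Itgb1 (1.96 ± 0.22, adjusted p = 0.0002) and smaller for Itgae (-2.35 ± 0.42, adjusted p = 0.0028). Tissue, droplet run and sex of the mice cannot be told apart in this comparison. Within Trgv6-called cells the KO difference was 0.13 ± 0.14 for Itgb1 in spleen (adjusted p = 0.63) and 1.91 ± 0.16 for Itgae in thymus (adjusted p = 7e-06). Between thymic γδ T cells and DN cells the value of KO minus WT was lower in the γδ T cells for Itgad (-4.98 ± 0.61, adjusted p = 0.00063), Itgb2 (-1.88 ± 0.34, adjusted p = 0.0042), Itgb3 (-1.87 ± 0.30, adjusted p = 0.0024) and Itgb7 (-1.33 ± 0.39, adjusted p = 0.037). The Itgb7 call was lost without either WT or either KO thymic γδ library or either WT DN library (edgeR adjusted p from 0.079 to 0.12) and without a filter on low counts (adjusted p = 0.097). Itgb2 and Itgb7 had positive differences in both populations, smaller in the γδ T cells. For Itgb3 both WT libraries lay above both KO libraries in thymic γδ T cells and below them in DN cells. WT DN cells were at 4.59 to 9.35 CPM for Itgb2, Itgb3 and Itgb7, and the part that cells with γδT17 markers in the KO DN libraries had in these differences was not tested.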

How the results depend on the processing

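Over 22 alternatives 1156 values of single members were recomputed, of which 1036 kept direction and side of the threshold, 66 lost a call, 33 gained one and 21 turned sign. The block by pool changed no call other than those given beside the results. Where a value turned or moved, the cause was not tested. Counts of called genes moved from 3427 to 2077 in DN cells with only the 4 DN libraries, from 1789 to 3451 with the replicate block in DN cells with Ptcra and Il2ra, and from 1747 to 598 in thymic Trgv6-called cells with the stricter minimum, which left 1 member called in place of 4. In splenic Trgv6-called cells 2 members were called with DESeq2 and 2 without a low-count filter, and 3 with the replicate block. Signs turned on library totals for splenic Itgb2 (-0.16), thymic γδ Itgav (-0.095) and the thymic γδ to DN contrast of Itgal (-0.0088), for thymic γδ Itgav also with DESeq2 (-0.013), with the excluded genes kept (-0.033) and without Trgv6-called cells (-0.075), and for Itgb1 with the stricter minimum in splenic (-0.063) and thymic (-0.044) Trgv6-called cells. Shares of cells (KO minus WT, points) turned without thinning for Itgav (3.38) and Itgb2 (6.31) in spleen and Itgb1 in thymic γδ (-4.33) and DN cells (-1.84), at 1000 UMIs for splenic Itgb2 (0.117), and at 4000 UMIs for splenic Itgav (1.84), splenic Itgb2 (0.981) and thymic γδ Itgb2 (0.309). With each library left out, called genes ranged from 1678 to 5040 in DN cells, 2637 to 3605 and 1887 to 3945 for the 2 contrasts of KO differences, 4660 to 5366 for WT thymic γδ against DN cells, 560 to 1973 in splenic and 902 to 1275 in thymic Trgv6-called cells and 1057 to 2377 in DN cells with Ptcra and Il2ra. Called members ranged from 5 to 8 in DN cells, 4 to 5 for WT spleen against thymus, 1 to 3 and 2 to 5 in splenic and thymic Trgv6-called cells, and 0 to 7 in DN cells with Ptcra and Il2ra. The differences that turned sign ranged from -0.17 to 0.048 for splenic Itgav, -0.031 to 0.17 for splenic Itgb2 and -0.075 to 0.094 for thymic γδ Itgav. Between spleen and thymic γδ T cells they ranged from -0.18 to 0.035 for Itgav and -0.27 to 0.083 for Itgb3. Between thymic γδ and DN cells they ranged from -0.22 to 1.01 for Itga1, -0.87 to 0.30 for Itgae, -0.23 to 0.43 for Itgal and -0.053 to 0.40 for Itgb1, and in splenic Trgv6-called cells from -0.032 to 0.40 for Itgb7 and -0.031 to 0.21 for Itgb2. In simulated data 2-fold changes were recovered least often in thymic Trgv6-called cells (29%), which numbered 41 and 57 in WT.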
